A study of Mus musculus with 6 samples.

Results

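The 40 genes described here drive or carry out mitosis. They are the mitotic kinases and cyclins, the spindle checkpoint, the kinetochore, the chromosomal passenger complex, the regulators of the anaphase-promoting complex (APC/C), cytokinesis genes, and the transcription factors Foxm1 and Mybl2. They were chosen by symbol, without kinesins as a family, from the 22851 gene symbols of a table of read counts, and all 40 were present. All 40 also passed the filter on low counts that left 14243 genes to test, and the lowest count of any of them in a library was 40.

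The libraries came from primary radial glial cells, the progenitors lining the ventricles, taken from the brains of mice at postnatal day 0 to 3. After growth in 10% serum, the cells were kept without serum for 6 days to become multiciliated ependymal cells. The strain background of all libraries was C57BL/6J. The 2 genotypes were wild type (WT) and Edf1 knockout (Edf1 KO, made with CRISPR/Cas9), with 3 libraries each that the series describes as biological replicates. The knockout is carried by the mouse and so by every cell in the culture, and whether animals were pooled is not given in the sources used here. Edf1 encodes a small transcriptional coactivator that also binds collided ribosomes.

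In a dividing cell, cyclins A and B activate the kinase CDK1 and drive entry into mitosis, and the APC/C, with CDC20 and then FZR1, destroys the cyclins and ends it. Cells that make many cilia have left the cell cycle. They are known to run an attenuated form of this same oscillator while they amplify centrioles, the bases of their cilia. Mitotic genes can therefore be read in such cultures both from cells that divide and from cells that amplify centrioles, and bulk RNA does not separate those sources.

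Total counts were 13071766 to 28087006 per library, and WT replicate 2 had the lowest. In a principal component analysis over all tested genes, the first component (60.7% of the variance) separated the genotypes. WT replicate 2 lay apart from the other WT libraries on the second (16.1%). Edf1 had 82.6, 85.9 and 80.2 CPM (counts scaled to the library total) in WT replicates 1 to 3 and 9.84, 10.9 and 13.2 CPM in the knockout, 13.7% of WT, so the labels and the targeted gene matched in all 6 libraries. All 17 markers of multiciliated ependymal cells were measured, and all 17 were called lower in the knockout, against 14.2% of all tested genes.

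Of the 40 mitotic genes, 10 rose and 9 fell in the knockout at an adjusted p-value under 0.05 (edgeR's quasi-likelihood test, Benjamini-Hochberg adjustment over all tested genes). That is 47.5% of the members, against 26.9% of all tested genes. The rises made up 25% of the members against 12.7% of all genes, and the falls 22.5% against 14.2%. Changes are given as shifts, the log2 fold change of the knockout over WT with its standard error after ±. The median shift of the 40 was 0.098, against 0.0029 over all tested genes. The groups did not overlap in CPM for 25 of the 40, against 43.3% of all tested genes. In 13 of them the knockout was higher, against 21.3% of all tested genes, and in 12 lower, against 22.1%.

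**Figure D1:**
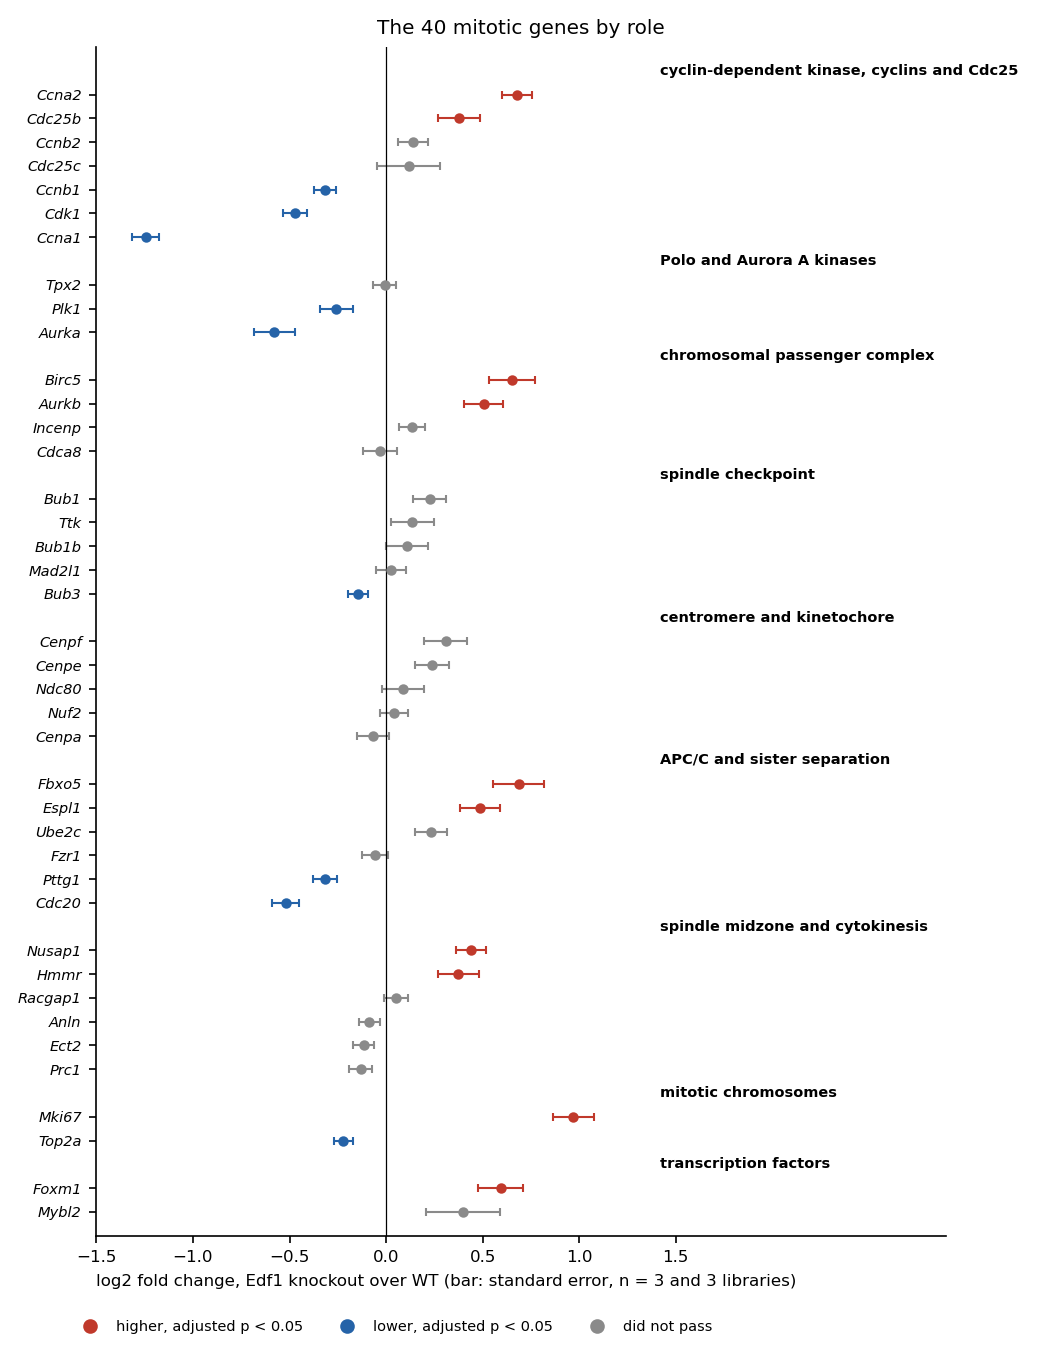
Log2 fold change of each of the 40 mitotic genes, Edf1 knockout over WT, grouped by role; points are edgeR estimates, bars their standard error, and the vertical line marks no change. Red points rose and blue points fell at an adjusted p-value under 0.05. Ccna1 is farthest to the left at -1.24 and Mki67 farthest to the right at 0.97, and no gene of the centromere and kinetochore group passed.

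The genes that fell were Ccna1, Aurka, Cdc20, Cdk1, Ccnb1, Pttg1, Plk1, Top2a and Bub3. The genes that rose were Mki67, Fbxo5, Ccna2, Birc5, Foxm1, Aurkb, Espl1, Nusap1, Cdc25b and Hmmr. Genes of the same complex or family were found on both sides. The summed level of all 40 was 1697 to 1734 CPM in WT and 1614 to 1677 CPM in the knockout. These ranges were close but did not overlap after TMM scaling, and they were not compared without it.

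Promoters are shown first because most of these genes share a known regulatory layout. Genes of late G2 and mitosis often carry a cell cycle homology region (CHR), which is bound by complexes built on the MuvB core, and CCAAT boxes, which are bound by NF-Y. RefSeq promoters (GRCm38.p6, 250 bases before to 50 after each annotated start) matched 34 of the 40 members. The members not matched were Ccna2, Cdc25c, Tpx2, Aurkb, Incenp and Foxm1. For Ccna1, Pttg1, Bub3, Fbxo5, Fzr1 and Cdca8, all 120 bases before a RefSeq start lie inside the gene as the GENCODE M21 annotation bounds it. Starts other than those of RefSeq were not searched, so a missing motif holds only for the window used. The windows were searched on both strands for the CHR, spelled TTTGAA or as the variant TTCGAA, which is its own reverse complement, and for the CCAAT box. The 120 bases just before the annotated start of 3 genes that fell (Cdk1, Cdc20, Top2a) and 3 that rose (Mki67, Espl1, Hmmr) are given 5′ to 3′ on the strand of the gene. Capitals mark CHR sequences and CCAAT boxes. On the opposite strand a CHR reads TTCAAA and a CCAAT box reads ATTGG. The windows lie at chr10:69352913-69353032 (minus strand) for Cdk1, chr4:118437344-118437463 (minus) for Cdc20 and chr11:99024190-99024309 (minus) for Top2a. They lie at chr7:135716380-135716499 (minus) for Mki67, chr15:102296173-102296292 (plus) for Espl1 and chr11:40733438-40733557 (minus) for Hmmr.
Cdk1: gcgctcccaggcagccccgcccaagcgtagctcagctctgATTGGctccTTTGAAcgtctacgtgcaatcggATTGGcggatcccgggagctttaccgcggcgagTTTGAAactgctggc
Cdc20: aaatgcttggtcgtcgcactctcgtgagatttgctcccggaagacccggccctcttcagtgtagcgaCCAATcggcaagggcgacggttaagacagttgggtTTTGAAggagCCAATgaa
Top2a: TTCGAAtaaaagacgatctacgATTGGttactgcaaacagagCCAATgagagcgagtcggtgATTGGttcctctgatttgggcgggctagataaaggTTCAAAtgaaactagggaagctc
Mki67: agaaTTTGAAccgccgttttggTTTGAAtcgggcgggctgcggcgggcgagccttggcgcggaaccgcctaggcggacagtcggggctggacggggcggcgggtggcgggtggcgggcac
Espl1: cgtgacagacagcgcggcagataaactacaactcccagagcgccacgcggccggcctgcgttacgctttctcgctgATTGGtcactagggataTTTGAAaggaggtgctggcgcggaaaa
Hmmr: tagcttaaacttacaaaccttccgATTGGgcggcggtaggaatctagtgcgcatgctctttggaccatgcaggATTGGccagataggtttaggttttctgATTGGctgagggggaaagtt

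Both motifs were found among genes that fell and among genes that rose, but not in every gene. A CHR and a CCAAT box together were held by 6 of 9 members that fell and 5 of 7 that rose. Ccna1, with the largest fall, held a CCAAT box and no CHR. Of the 34 members with a promoter, 24 (70.6%) held a CHR sequence in the 300-base window, against 16.5% of the 11342 tested genes with a promoter and 21.7% of all 27025 genes with a promoter. CCAAT was held by 26 (76.5%), against 43% of the tested genes and 41.1% of all. Both motifs together were held by 22 members (64.7%), against 6.97% of the tested genes and 8.61% of all. By direction, a CHR was held by 6 of 9 members that fell, 5 of 7 that rose and 13 of 18 that did not pass. CCAAT was held by 8 of 9 that fell, 5 of 7 that rose and 13 of 18 that did not pass. There were 2 or more CCAAT boxes in 6 of 9 that fell, 3 of 7 that rose and 8 of 18 that did not pass. The share with 2 or more was 16.3% over the tested genes with a promoter. No difference between directions was tested. A match of these letters is not a measured binding site.

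**Figure D2:**
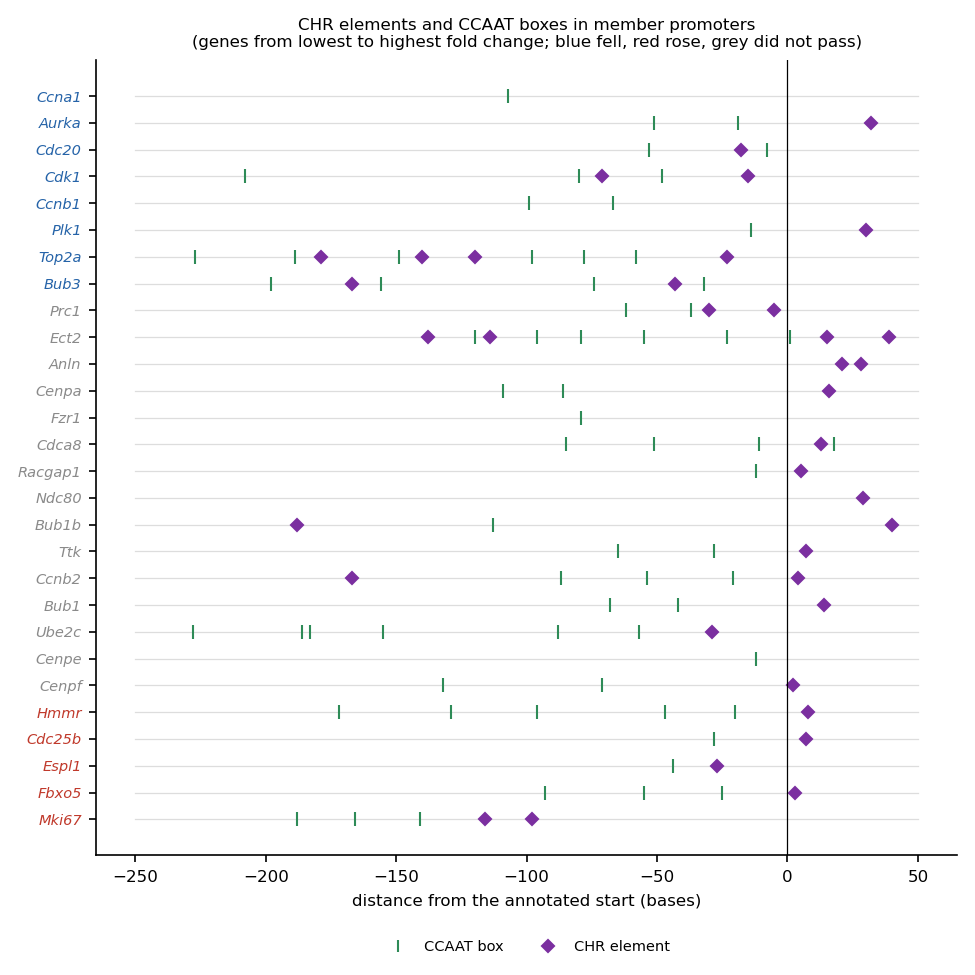
Positions of CHR sequences (diamonds) and CCAAT boxes (ticks) in the promoter windows of the 28 members with at least 1 match, in bases from the annotated start; genes run from the lowest to the highest fold change. Names in blue fell, in red rose and in grey did not pass, and windows of the 3 members with more than 1 annotated start are merged. Most CHR sequences lie near the start and most CCAAT boxes before it, in genes of every colour.

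Among the cyclins and the kinase they activate, the A-type cyclins moved in opposite directions. Ccna1 (chr3:55045469-55055501), the A-type cyclin known from the germ line and from cells that make many cilia, had 82.0, 92.1 and 78.2 CPM in WT replicates 1 to 3. It had 34.6, 35.2 and 36.3 CPM in the knockout, below every WT library. Its shift was -1.24 ± 0.069 (edgeR adjusted p = 2.16e-07), the lowest of the 40. Ccna2 (chr3:36564865-36572150), the A-type cyclin of ordinary S phase and mitosis, had 19.7, 18.9 and 19.2 CPM in WT and 33.0, 29.4 and 30.5 CPM in the knockout. Every knockout library was above every WT library, and the shift was 0.68 ± 0.077 (edgeR adjusted p = 3.97e-05). Exons of Ccna1 overlap 4931419H13Rik, and those of Ccna2 overlap Exosc9, on the opposite strand. Whether the counting used strand is not given in the sources used here. Exosc9 itself had a shift of 0.070 (edgeR adjusted p = 0.455).

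Cdk1 and the B-type cyclin Ccnb1 fell, by less than Ccna1. Cdk1 (chr10:69335146-69352938), the kinase of mitotic entry, had 108.3, 114.1 and 100.2 CPM in WT and 76.0, 80.7 and 76.1 CPM in the knockout. The groups were clearly apart, with a shift of -0.47 ± 0.062 (edgeR adjusted p = 0.000121). Ccnb1, its main mitotic partner, had 54.7, 54.4 and 54.1 CPM in WT and 45.2, 43.5 and 42.4 CPM in the knockout, a shift of -0.32 ± 0.057 (edgeR adjusted p = 0.00135). Of the 31-base words in Ccnb1 transcripts, 27.8% also occur in another gene, chiefly Ccnb1-ps, so part of its reads could belong to that copy. Over 10% of these words were shared with another gene in 10 of the 40 members, from 10.6% in Ndc80 to 27.8% in Ccnb1. The other B-type cyclin, Ccnb2, had overlapping values, with 23.7 to 27.2 CPM in WT and 26.5 to 28.6 CPM in the knockout (shift 0.14 ± 0.078, edgeR adjusted p = 0.217).

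The phosphatases that switch CDK1 on did not follow Cdk1. Cdc25b rose from 9.49, 7.92 and 9.24 CPM in WT to 10.94, 11.98 and 11.93 CPM in the knockout, with no overlap. Its shift of 0.38 ± 0.11 had an adjusted p of 0.0230 (edgeR). Leaving out knockout replicate 2 (0.36, edgeR adjusted p = 0.0756) or 3 (0.36, edgeR adjusted p = 0.0869) ended that call. Exons of Cdc25b overlap Spef1, a gene of motile cilia, on the opposite strand, and Spef1 fell, with a shift of -0.97 (edgeR adjusted p = 2.25e-06). Cdc25c was low, with 4.05 to 4.56 CPM in WT and 3.93 to 5.38 CPM in the knockout, and did not pass (shift 0.12, edgeR adjusted p = 0.648).

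Levels of the cyclins were also compared per length of the main annotated transcript. On that scale Ccna1 had 48.9 CPM per kb in WT and 20.6 in the knockout, and Ccna2 had 6.497 and 10.43. Ccnb1 had 21.8 and 17.6 CPM per kb, and Ccnb2 had 16.5 and 18.1. Ccna1 was thus the most abundant of these 4 cyclins in WT by more than the spread of the libraries. In the knockout it lay close to both B-type cyclins.

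**Figure D3:**
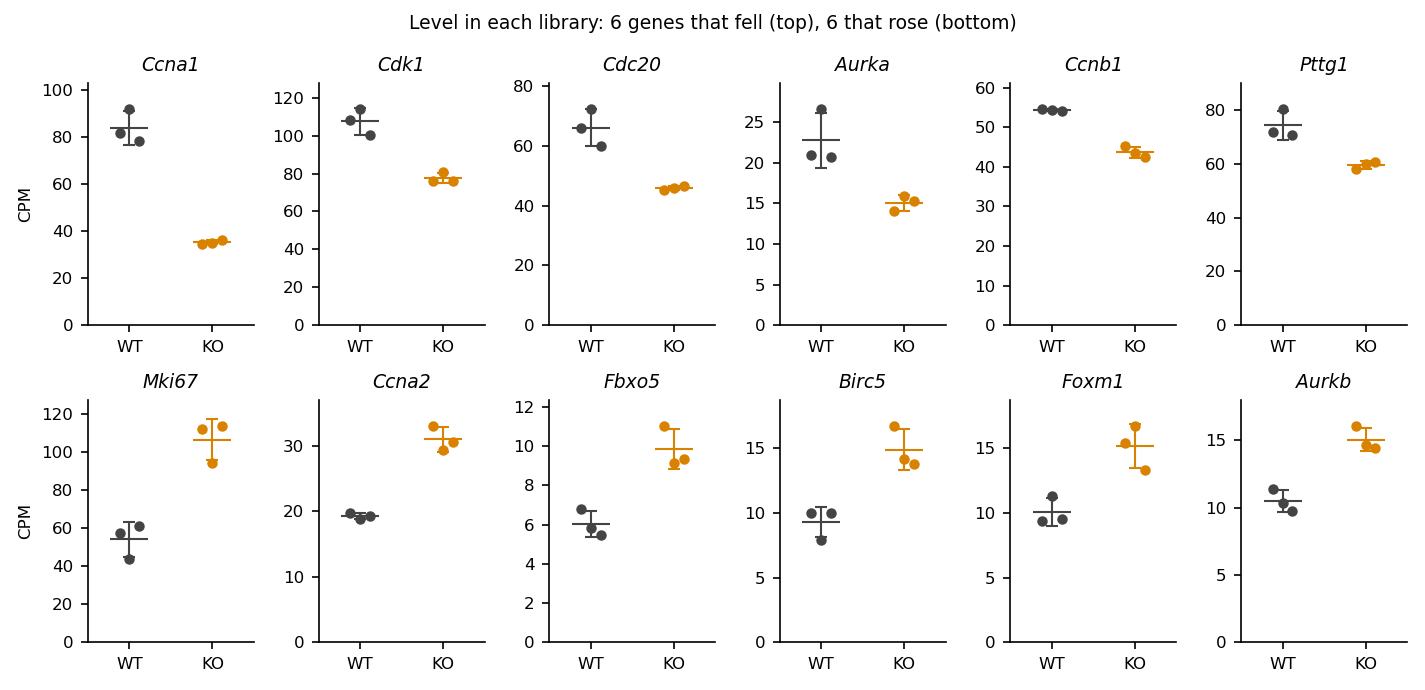
CPM in each library for 6 mitotic genes that fell (top row) and 6 that rose (bottom row) in the Edf1 knockout (KO); points are libraries, the horizontal bar is the mean and the error bar the SD over 3 libraries, and each axis starts at 0. In every panel the 3 knockout libraries lie on 1 side of the 3 WT libraries, as for Ccna1, with 78.2 to 92.1 CPM in WT and 34.6 to 36.3 CPM in the knockout.

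The ratio of a gene to its partner in the same library does not depend on scaling, and 6 such pairs were compared. Ccna1 had 4.17, 4.88 and 4.06 reads for each Ccna2 read in WT, and 1.05, 1.197 and 1.19 in the knockout. This was the largest shift of the 6, a difference of -1.93 in the log2 ratio. The ratio of Ccnb1 to Ccnb2 went from 2.19, 2 and 2.28 to 1.58, 1.64 and 1.51 (difference -0.45). Aurka to Aurkb went from 1.84, 2.58 and 2.12 to 0.874, 1.09 and 1.06 (difference -1.11), and Fzr1 to Cdc20 from 0.705, 0.719 and 0.742 to 1.03, 0.984 and 0.974 (difference 0.46). In these 4 pairs the groups did not overlap, and each had p = 0.1 in a two-sided exact permutation test, the smallest that 3 against 3 libraries can give, or 0.15 adjusted over the 6 pairs. The ratios of Cdc25b to Cdc25c (p = 0.2) and of Bub1 to Bub1b (p = 0.6) overlapped between the groups in the same exact test.

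**Figure D4:**
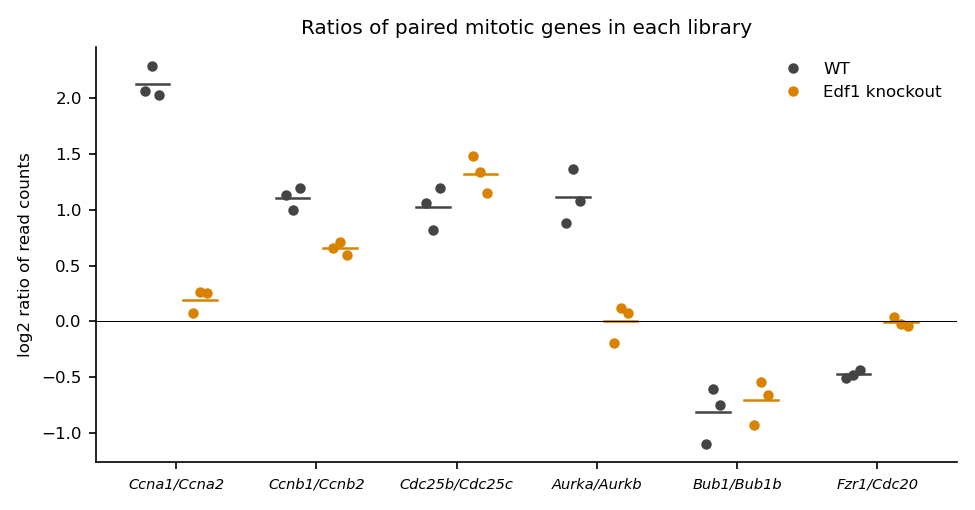
Log2 ratio of the read counts of 2 mitotic genes in each library, for 6 pairs; points are libraries and bars the group means, and 0 means equal counts. The ratio of Ccna1 to Ccna2 lies between 2.02 and 2.29 in WT and between 0.071 and 0.26 in the knockout, and Aurka and Aurkb are near equal in the knockout.

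Among the Polo and Aurora kinases, Aurka and Plk1 fell, while Aurkb, given below with its complex, rose. Aurka, the Aurora kinase of centrosomes and spindle poles, had 21.0, 26.6 and 20.7 CPM in WT and 14.02, 15.93 and 15.26 CPM in the knockout. All knockout values were below WT, and the shift was -0.58 ± 0.11 (edgeR adjusted p = 0.00152). Plk1, the Polo kinase of mitotic entry and centrosome maturation, had 28.1, 32.2 and 28.8 CPM in WT and 26.4, 25.3 and 22.7 CPM in the knockout. Its shift of -0.26 ± 0.085 was near the threshold (edgeR adjusted p = 0.0403), and 18.7% of its 31-base words are shared, chiefly with Plk-ps1. The Plk1 call was lost in 5 of the 6 fits that each left out a library, at adjusted p-values of 0.0525 to 0.183, for every library except knockout replicate 1. Tpx2, the activator of Aurora A on spindle microtubules, had 63.2 to 68.8 CPM in WT and 64.2 to 69.4 CPM in the knockout, a shift of -0.0068 ± 0.059 whose sign was not stable.

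Genes of the chromosomal passenger complex, which corrects chromosome attachment and acts in cytokinesis, rose or did not pass. Aurkb, its kinase, had 11.4, 10.3 and 9.78 CPM in WT and 16.0, 14.7 and 14.4 CPM in the knockout, a shift of 0.51 ± 0.0998 (edgeR adjusted p = 0.00249). Birc5, which encodes survivin, had 9.95, 7.92 and 10.00 CPM in WT and 16.7, 14.2 and 13.7 CPM in the knockout, a shift of 0.65 ± 0.12 (edgeR adjusted p = 0.00143). Neither gene overlapped between the groups. The scaffold Incenp (0.13) and the subunit Cdca8 (-0.032) had overlapping values and did not pass.

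Of 5 spindle checkpoint genes, Bub3 passed, with 126.0, 126.6 and 121.9 CPM in WT and 111.7, 111.0 and 115.5 CPM in the knockout. Its shift of -0.15 ± 0.051 had an adjusted p-value of 0.0493 by edgeR, and the call was lost in 10 of 11 alternatives, with adjusted p-values up to 0.160. Leaving out any library except WT replicate 2 ended it. The kinases Bub1 and Ttk, the kinase-like Bub1b and the inhibitor Mad2l1 had log2 fold changes of 0.027 to 0.23 and did not pass. Bub1, with 15.9 to 18.5 CPM in WT and 19.9 to 20.6 CPM in the knockout, did not overlap but missed the threshold (edgeR adjusted p = 0.0658). It passed without WT replicate 2 (0.27, adjusted p-value 0.0218) and, narrowly, with library size alone (0.24, adjusted p-value 0.0498).

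None of the 5 centromere and kinetochore genes passed in the main edgeR fit, over all 6 libraries. Before adjustment, 2 of them, Cenpe and Cenpf, were under 0.05, and DESeq2 called 1, Cenpf. The centromeric histone Cenpa (-0.068) and the Ndc80 complex genes Ndc80 (0.089) and Nuf2 (0.039) had overlapping values. The motor Cenpe had 23.8 to 27.7 CPM in WT and 28.4 to 33.2 CPM in the knockout (shift 0.24, edgeR adjusted p = 0.0607). The large kinetochore protein gene Cenpf had 37.4 to 51.4 CPM in WT and 48.4 to 62.7 CPM in the knockout (shift 0.31, edgeR adjusted p = 0.0579). Cenpf passed in DESeq2 (adjusted p-value 0.0255), in edgeR with no filter on low counts (0.0257), without WT replicate 3 (0.0227) and without knockout replicate 2 (0.0266). Cenpe passed without knockout replicate 2 (0.0458). Both genes passed in edgeR with the replicate number as a block (adjusted p-values 0.00214 for Cenpf and 0.0325 for Cenpe).

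Regulators of the APC/C and of sister separation went both ways. Cdc20, the activator that starts anaphase, had 65.9, 72.3 and 59.95 CPM in WT and 45.3, 46.0 and 46.4 CPM in the knockout, which was below every WT library. Its shift was -0.52 ± 0.070 (edgeR adjusted p = 0.000145). Of the 31-base words of Cdc20, 26.7% occur in another gene, and its exons overlap Elovl1 on the opposite strand, which had -0.21 (edgeR adjusted p = 0.0508). Fzr1, the activator of mitotic exit and of resting cells, had 44.5 to 52.0 CPM in WT and 45.2 to 46.5 CPM in the knockout, overlapping (shift -0.056, edgeR adjusted p = 0.588). Fbxo5, which encodes the APC/C inhibitor EMI1, rose from 6.78, 5.83 and 5.46 CPM to 11.005, 9.14 and 9.35 CPM. The Fbxo5 groups were apart, and the shift was 0.69 ± 0.13 (edgeR adjusted p = 0.00224). Of the 31-base words of Fbxo5, 15.5% are shared, chiefly with Gm45062.

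Securin and separase, which bind each other until anaphase, moved in opposite directions. Pttg1, securin, had 71.9, 80.5 and 70.7 CPM in WT and 57.98, 59.9 and 60.8 CPM in the knockout, a shift of -0.32 ± 0.063 (edgeR adjusted p = 0.00259). Espl1, separase, had 9.57, 8.55 and 8.87 CPM in WT and 13.16, 12.03 and 12.85 CPM in the knockout, a shift of 0.49 ± 0.10 (edgeR adjusted p = 0.00358). Neither overlapped between the groups. Ube2c, the ubiquitin-conjugating enzyme of the APC/C, had 15.3 to 17.6 CPM in WT and 19.3 to 19.8 CPM in the knockout and missed the threshold (shift 0.23, edgeR adjusted p = 0.0579). It passed without WT replicate 2 (0.26, adjusted p-value 0.0254) and, narrowly, with library size alone (0.25, adjusted p-value 0.0468). Of its 31-base words, 25.3% are shared, chiefly with Tnnc2 on the opposite strand.

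Of 6 genes of the spindle midzone and cytokinesis, 2 rose and none fell at the threshold by edgeR. Nusap1, a microtubule-bundling protein gene, had 19.1, 19.0 and 19.8 CPM in WT and 27.6, 26.1 and 25.1 CPM in the knockout, a shift of 0.44 ± 0.077 (edgeR adjusted p = 0.00104). Hmmr, a spindle assembly factor gene, had 11.9, 10.4 and 13.8 CPM in WT and 15.1, 15.7 and 16.4 CPM in the knockout, a shift of 0.37 ± 0.11 (edgeR adjusted p = 0.0215). Both were higher in every knockout library than in any WT library. The Hmmr call was lost without WT replicate 1 (adjusted p-value 0.0722) and without knockout replicate 2 (0.0601) or 3 (0.0920). Prc1 (-0.13), Ect2 (-0.12) and Anln (-0.086), all needed for the cleavage furrow or midzone, had lower values in every knockout library, but did not pass. Racgap1 (0.051) overlapped.

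Both genes of mitotic chromosomes passed, in opposite directions. Mki67, the proliferation marker that coats mitotic chromosomes, had 57.5, 43.9 and 61.2 CPM in WT and 112.3, 94.1 and 113.7 CPM in the knockout. The lowest knockout library was above the highest WT library, and the shift of 0.97 ± 0.11 (edgeR adjusted p = 3.12e-05) was the highest of the 40. WT replicate 2 had the lowest Mki67, and without it the log2 fold change was 0.85 (adjusted p-value 2.31e-08). Top2a, topoisomerase II alpha, had 304.4, 278.5 and 295.3 CPM in WT and 261.5, 246.5 and 246.3 CPM in the knockout, a shift of -0.22 ± 0.050 (edgeR adjusted p = 0.00629). Top2a had the most CPM of the 40 genes in all 6 libraries.

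The transcription factors of the mitotic programme were low. Foxm1, which acts with the MuvB complex on late cell cycle genes, had 9.38, 11.3 and 9.51 CPM in WT and 15.4, 16.7 and 13.3 CPM in the knockout. It rose without overlap, by a shift of 0.59 ± 0.12 (edgeR adjusted p = 0.00228). Exons of Foxm1 overlap Gm44596 and Tex52 on the same strand, and 1.96% of its 31-base words are shared. Mybl2, or B-Myb, had 5.27, 3.11 and 3.95 CPM in WT and 6.33, 5.57 and 5.03 CPM in the knockout, overlapping, with a shift of 0.40 ± 0.19 (edgeR adjusted p = 0.146). It passed without WT replicate 1 (0.65, adjusted p-value 0.0378), and 21.1% of its 31-base words are shared, chiefly with Gm3320.

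To see which genes moved against the rest, each level was set relative to the median of the 40 in its own library, as log2 CPM. This is a description with no test. On that scale the groups did not overlap for 12 genes that were lower and 11 that were higher in the knockout. The same count was not made over all tested genes on that scale. In plain CPM the groups did not overlap for 43.3% of all tested genes. The 12 were the 9 genes that fell together with Prc1, Anln and Ect2, and the 11 were the 10 that rose together with Ube2c. Ccna1 went from 1.599 above the median in WT to 0.26 above it, and Cdk1 from 1.95 to 1.39. Aurka went from 0.29 below the median to 0.97 below it, and Mki67 from 0.96 above to 1.85 above.

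Other genes of the mitotic pathway, in lists written by symbol, were compared in the same fit. Over all tested genes, 26.9% were called, 12.7% higher and 14.2% lower. Of 15 genes of the APC/C core and its elongating enzyme, 3 fell and 0 rose by edgeR (20% called). Their median log2 fold change was -0.12. The strongest falls were Anapc11, the RING subunit (-0.42), and Ube2s, the enzyme that extends ubiquitin chains (-0.35). The third was Cdc23, a scaffold subunit (-0.16), close to the threshold (edgeR adjusted p = 0.0489). Leaving out a library gave 2 to 6 falls, with 6 without WT replicate 2. Of 35 other kinetochore and checkpoint genes, 3 rose and 5 fell (22.9% called), with a median of 0.055. Among them, Ska1 (0.92) and Kntc1 (0.70) were higher and Cenpp (-0.61) and Trip13 (-0.49) lower. The other falls were Cenpi (-0.39), Mad1l1 (-0.33) and Zwilch (-0.27). The 5 falls became 3 without WT replicate 3 or knockout replicate 1, 2 without knockout replicate 2 and 1 without knockout replicate 3, and the median became 0.017 without knockout replicate 2. Of 12 genes of condensin and cohesin protection, 0 rose and 2 fell (16.7% called). The falls were Ncapg2 (-0.42) and Ncaph (-0.40), and the median was 0.058. The 2 falls became 1 without WT replicate 1 or 3, or without knockout replicate 2 or 3.

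Other spindle and cytokinesis genes went both ways. Of 20, 5 rose and 6 fell (55% called, against 26.9% of all tested genes). The median was 0.012 (-0.041 without WT replicate 2). Pimreg (0.999) and Depdc1a (0.75) had the largest rises, and Ckap2l (-0.85), a centrosome and spindle protein gene, and Nek2 (-0.85), the centrosome-separating kinase, the largest falls. Of the 31-base words of Depdc1a, 64.9% are shared, chiefly with Gm5596. Ckap2l had 133.5, 121.7 and 132.8 CPM in WT and 69.4, 70.8 and 74.4 CPM in the knockout.

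Among 19 tested genes of mitotic entry and exit, 2 rose (Mastl 0.47, Ccnf 0.47) and 3 fell, with a median of -0.0068. That is 26.3% called, against 26.9% of all tested genes. The strongest fall was Fbxo43, which encodes the APC/C inhibitor EMI2. Fbxo43 had 7.53, 6.60 and 7.51 CPM in WT and 4.12, 2.56 and 2.62 CPM in the knockout, a shift of -1.26 ± 0.19 (edgeR adjusted p = 0.000305), where the related inhibitor Fbxo5 rose. Cks2, which encodes a small CDK1-binding protein, was next at -0.54, followed by Wee1, the kinase that holds CDK1 inactive, at -0.37. Of the 31-base words of Cks2, 31.7% are shared, chiefly with Gm15452. Of 17 MuvB, DREAM and E2F genes, 1 rose (Rbl1, 0.24) and 2 fell (E2f7 -0.63, E2f4 -0.21). This was 17.6% called, and the median was 0.041. The calls of Mastl, Ccnf, Ska1, Trip13, Ncapg2, Rbl1 and E2f4 were lost in at least 2 fits that left out a library. The 2 rises in the entry and exit list became 1 without WT replicate 3 and 0 without knockout replicate 1 or 3. In the MuvB list the count of rises became 0 without WT replicate 2 or 3 or knockout replicate 1 or 2. Its count of falls became 1 in each of the 5 fits that kept WT replicate 2 and left out another library.

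DNA replication genes and centriole genes were compared as the neighbouring programmes. Of 39 DNA replication and S phase genes, 14 rose and 3 fell (43.6% called, 35.9% higher and 7.69% lower), with a median of 0.10. Over all tested genes these shares were 26.9%, 12.7% and 14.2%. Prim1, a primase subunit gene (1.09), and Mcm10 (0.83) had the largest rises, and Cdt1 (-0.41) and Chaf1a (-0.40) the largest falls. Of the 31-base words of Chaf1a, 51% are shared, chiefly with Ubxn6 on the opposite strand. The 14 rises became 9 without WT replicate 1 or knockout replicate 2, and the 3 falls became 6 without WT replicate 3. Of 27 genes of centriole amplification and multiciliation, 24 fell (88.9%, against 14.2% of all tested genes) and 0 rose, with a median of -0.75. The values there were -1.31 for Foxn4, -1.27 for Deup1, -1.25 for the atypical cyclin Ccno, -1.13 for Mcidas, -1.13 for Myb, -1.09 for Cdc20b and -0.83 for Plk4. The list ran from -1.31 to -0.085, a wide range. The 9 mitotic genes that fell lay within it, at -1.24 for Ccna1 and -0.58 to -0.15 for the others. Prc1 (-0.13), Ect2 (-0.12) and Anln (-0.086), which did not pass, lay within it too. Lying in so wide a range therefore does not set a gene with the centriole list. Fbxo43 and Nek2 are counted in that list and in a mitotic list. Kntc1, which rose, is counted in the other kinetochore and checkpoint list and in the other spindle and cytokinesis list. The difference between lists was not tested.

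**Figure D5:**
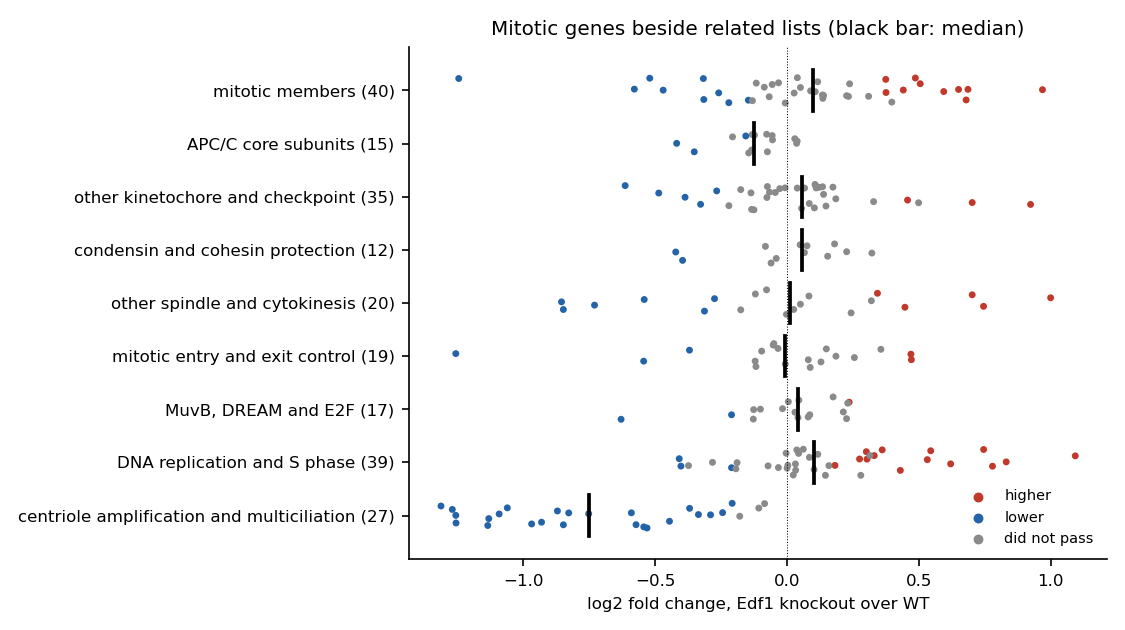
Log2 fold changes of the 40 mitotic genes and of 8 related lists, with the number of tested genes in brackets; points are genes, red higher and blue lower at an adjusted p-value under 0.05, black bars list medians, and vertical scatter within a row is only for display. The mitotic genes spread from -1.24 to 0.97 around a median of 0.098, and the centriole amplification list lies wholly below 0, with a median of -0.75.

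Markers of other cell types that the cultures could hold moved with genotype. For comparison, 12.7% of all tested genes were called higher and 14.2% lower. Of 17 microglia markers, 16 fell and 0 rose, and their summed level was 3257 to 3494 CPM in WT and 2102 to 2153 CPM in the knockout. Of 18 fibroblast and mural markers, 13 were tested, of which 9 rose and 0 fell, with 887 to 945 CPM in WT and 1091 to 1215 CPM in the knockout. Of 7 endothelial markers, 2 were tested, 1 higher (1.73) and 1 lower (-1.58). The sum went from 46.2 to 52.7 CPM in WT to 129 to 133 CPM in the knockout. The markers not tested (Pecam1, Cdh5, Cldn5, Tek and Emcn) had at most 26 counts in a library, so the summed rise came mainly from 1 gene. No marker of these lists was at 0 in all libraries.

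In summed CPM the ratio between genotypes was nearer 1 for the remaining lists. The 13 neuron markers summed to 48.4 to 51.3 CPM in WT and 42.7 to 45.6 CPM in the knockout, with 3 lower of 8 tested and a median shift of -0.40, and the 11 oligodendrocyte lineage markers to 453 to 492 and 423 to 441 CPM, with 1 higher and 1 lower of 8. Radial glia and astrocyte markers had 3 higher and 2 lower of 16, with sums of 10842 to 11347 CPM in WT and 11780 to 12211 CPM in the knockout. The part of these cell types in the mitotic genes was not tested. In bulk RNA, fewer cells of a type and less RNA per cell cannot be told apart.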

How the data were processed

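Read counts per gene symbol, 1 column per library, were deposited by the authors as whole numbers. The submitters' processing notes name FastQC 0.11.2, cutadapt 1.11, HISAT2 2.1.0 and the build GRCm38, while the counting program, annotation, strand and handling of multiply mapped reads are not given in the sources used here. The deposited counts were analysed in R 4.3.3 with edgeR 4.0.16: filterByExpr, TMM factors (0.985 to 1.01) and the quasi-likelihood test of knockout against WT over all 6 libraries, with no covariate. The threshold was an adjusted p-value of 0.05. The standard error was taken from the fold change and its F statistic, and log2 CPM used a prior count of 2.

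Alternatives were DESeq2 size factors, library size alone, no filter beyond 1 count, DESeq2 1.42.0, a replicate block, a threshold of 0.01, and each library left out in turn. The members and lists were chosen with earlier results of these data known, so lists are described by counts and medians only. All 40 members are named. In the related lists the 2 largest rises and 2 largest falls that passed are named, with Plk4, Ccno, Cdc20b, Myb and Mcidas. Genes overlapping member exons, further called genes of short lists (Cdc23, Cenpi, Mad1l1, Zwilch, Wee1), and the library values of Fbxo43 and Ckap2l were chosen after their values were seen. Coordinates, transcript lengths and shared 31-base words came from GENCODE M21 (GRCm38), and promoters from RefSeq (GRCm38.p6). The fits were also run on simulated counts with fewer changed genes than were called here. No result given here rests on those runs. Replicates of a genotype had Spearman correlations of 0.993 to 0.998 and differed by more than sampling noise.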

Additional observations from a re-analysis of the deposited data

How the results depend on the processing

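With a threshold of 0.01, 2213 genes changed (965 higher, 1248 lower), and 15 of the 40 mitotic genes stayed called, where 3833 and 19 were called at 0.05. The fits that each left out a library called 2658 to 4340 genes (1204 to 2070 higher, 1436 to 2270 lower) and 15 to 20 mitotic genes (8 to 12 higher, 7 or 8 lower), of which 15 to 18 were shared with the 19. Without WT replicate 2, which lay apart, 20 mitotic genes were called, 12 higher and 8 lower, and 18 of them were shared. In all 11 alternatives that kept the 0.05 threshold, 15 of the 19 calls were kept, and none of the 19 changed direction. The 4 exceptions were Bub3, Plk1, Cdc25b and Hmmr.

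Among the members, the sign changed only in 8 that were not called, with main shifts up to 0.12 in size (Cdc25c). Tpx2 had 0.0064 with library size alone. Over the fits that left out a library, the ranges were -0.042 to 0.024 for Tpx2, -0.031 to 0.066 for Mad2l1, -0.0071 to 0.098 for Nuf2, -0.099 to 0.0034 for Fzr1, -0.016 to 0.20 for Bub1b, -0.0085 to 0.090 for Racgap1, -0.0076 to 0.22 for Cdc25c and -0.12 to 0.032 for Cdca8. The median of the other spindle and cytokinesis genes ran from -0.041 to 0.016, and the log2 ratio of Bub1 to Bub1b from -0.035 to 0.21. The cause was not tested.

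The replicate number as a block gave 20 mitotic genes, 12 higher and 8 lower. It called Cenpf (0.32, adjusted p-value 0.00214) and Cenpe (0.24, adjusted p-value 0.0325), not Bub3, and gave 5 falls in the APC/C list, 5 in the DNA replication list and 1 in the MuvB list. Between same-numbered libraries, the departures from the genotype means had correlations of 0.069, 0.060 and 0.037, with each library correlating best with its own number. The libraries share only a number, so no pairing was assumed.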
